A study of Mus musculus with 6 samples.

Results

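Lipid droplets are the stores of neutral lipid in a cell, and a small set of enzymes and membrane proteins decides how fast they are filled and emptied. This report describes 9 genes of that set in Leydig cells, Pnpla2, Lipe, Mgll, Lipa, Abhd5, G0s2, Hilpda, Bscl2 and Fitm2, which were chosen by symbol among the 14774 genes with a row in the deposited count table. All 9 had a row, and 8 had enough counts to enter the test, Mgll being the exception. RNA of wild type MA-10 cells, which derive from a mouse Leydig cell tumor, was compared with RNA of STARKO1 cells, a derivative of MA-10 in which CRISPR/Cas9 was directed at exon 2 of Star, the gene of the steroidogenic acute regulatory protein. Both lines were untreated, and 3 libraries of total RNA were sequenced from each. STARKO1 was grown from a single sorted cell and is 1 clone, so a difference between the lines due to the loss of Star cannot be told apart from one due to the clone.

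Triglyceride in a droplet is broken down in steps. Pnpla2 (adipose triglyceride lipase, ATGL) removes the first fatty acid, Lipe (hormone-sensitive lipase, HSL) acts on the resulting diacylglycerol (DAG) and also on cholesteryl ester, and Mgll (monoglyceride lipase) releases the last fatty acid. Lipa (lysosomal acid lipase) hydrolyzes the same lipids, cholesteryl ester included, after they reach the lysosome. Abhd5 (CGI-58) activates Pnpla2, whereas G0s2 and Hilpda inhibit it. Bscl2 (seipin) and Fitm2 belong to the endoplasmic reticulum, where droplets form. In steroidogenic cells these steps matter because cholesteryl ester held in droplets is a source of cholesterol for steroids, and Lipe is the enzyme known for releasing it. The comparison asked which of these genes differed in mRNA level between unstimulated MA-10 and STARKO1 cells.

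The table holds estimated counts, with totals between 14114349 and 19530054 per library. Levels are given as CPM, the usual depth-scaled count, on library sizes scaled with the TMM method. Star had 1064, 1261 and 697 counts in MA-10 replicates 1, 2 and 3 and 48, 46 and 36 counts in the STARKO1 replicates, so the targeted gene followed the labels in all 6 libraries. Of 10 Leydig cell markers all had a row, with a summed level of 1569 to 2080 CPM in MA-10 and 1573 to 1629 CPM in STARKO1 libraries, while of 6 adipocyte markers none had a row. The Leydig marker Hsd17b3 was at no more than 0.347 CPM in any library. The sums do not show the single genes. Of 9 tested Leydig markers only Hsd3b1 had an adjusted p under 0.05 (0.00268 from edgeR's test), beside 9.04% of all genes tested. Its means were 29.8 CPM in MA-10 and 5.19 CPM in STARKO1. Cyp11a1, Nr5a1 and Fdxr had means of 835, 472 and 100 CPM in MA-10 and 439, 633 and 173 CPM in STARKO1. None of the 3 passed (adjusted p = 0.067, 0.189 and 0.0878 from edgeR's test). Those 3 genes were picked after their values were seen, and MA-10 replicate 1 was nearest to STARKO1 for each. Cyp17a1, with means of 3.58 CPM in MA-10 and 8.57 CPM in STARKO1, did not pass either. For it MA-10 replicate 1 was the farthest from STARKO1. MA-10 replicate 1 stood apart from the other MA-10 libraries. Across 8538 genes, its log2 CPM correlated with replicates 2 and 3 at r = 0.802 and 0.874, but with the STARKO1 libraries at r = 0.949 to 0.955. The TMM factor was 1.16 in MA-10 replicate 1 and 1.17 to 1.19 in STARKO1 libraries, but 0.654 and 0.805 in MA-10 replicates 2 and 3. The 7SL RNA, which is the RNA component of the signal recognition particle, took 1.81% of the counts in MA-10 replicate 1, 14.4% and 6.63% in replicates 2 and 3, and 1.82% to 2.37% in STARKO1 libraries. Its part in the results was not tested, and results that turn on MA-10 replicate 1 are therefore given with and without it. The labels do not say whether the replicates were separate cultures, so p-values measure the spread between these libraries, which may be technical.

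A stretch of 30 bases of the promoter is shown for Pnpla2, Lipe, Bscl2 and Fitm2, which were picked after their values were seen. Of these, only Bscl2 had an adjusted p under 0.05 in the test of all 6 libraries. The stretch of Lipe lies inside the span of Lipe given below, as does its RefSeq start. RefSeq gave 14 windows of 250 bases before a start site for the 9 genes on GRCm38.p6. In each line, capitals mark the match nearest to the start site of the gene's outermost RefSeq transcript among 6 motifs that were searched on both strands, and the sequence reads 5′ to 3′ on the strand of the gene.
Pnpla2, chr7:141455150-141455179, plus strand: gccgaccaggccCCGCCCtcaccccgcact
Lipe, chr7:25395988-25396017, minus strand: gctcccggggcaagtGGGCGGgccaggttc
Bscl2, chr19:8837386-8837415, plus strand: ggatcgttccctATTGGgaacgctggggac
Fitm2, chr2:163472680-163472709, minus strand: acgccctctaggGGGCGGagcttgcaggaa
The match was a GC box (GGGCGG) in Pnpla2, Lipe and Fitm2, at 26, 15 and 68 bases before the start. In Pnpla2 it was read on the other strand, so that the capitals show its reverse complement. It was a CCAAT box in Bscl2, 69 bases before the start and also read on the other strand. A GC box was in 7 of the 14 windows of the 9 genes and in 32.7% of 32851 RefSeq windows of the same length. A CCAAT box was in 2 of 14, those of Bscl2 and Lipa, and in 33.8% of all. An E-box (CACGTG) was in 2 windows, of Lipe and Mgll, and in 6.02% of all, and the hypoxia response core ACGTG, which every E-box of this kind contains, was in 4 windows, of Hilpda, Lipe and Mgll, and in 16.6% of all. The letters CAAGGTCA, bound by steroidogenic factor 1, and TGACGTCA, the cAMP response element, were in none of the 14 windows and in 1.33% and 1.55% of all. These matches are descriptions of the sequence.

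Among the lipases, Pnpla2 had lower and Lipe higher values in STARKO1 cells, and neither passed the threshold (adjusted p under 0.05) in the test of all 6 libraries, although at an unadjusted p under 0.05 both did. In bulk RNA, fewer cells expressing a gene and less RNA of it per cell cannot be told apart. Pnpla2 (chr7:141455198-141460743, plus strand) was at 95.5, 72.3 and 76.2 CPM in MA-10 replicates 1 to 3 and at 53.2, 57.6 and 53.8 CPM in STARKO1. Every MA-10 library was above every STARKO1 library, and the highest of all was MA-10 replicate 1. The log2 fold change of STARKO1 over MA-10 was -0.57 (standard error 0.166, 95% interval -0.96 to -0.17), with an adjusted p of 0.0688 from edgeR's quasi-likelihood test. Lipe (chr7:25379527-25398710, minus strand) was at 13.5, 8.50 and 8.89 CPM in MA-10 and at 15.3, 14.6 and 14.8 CPM in STARKO1. The STARKO1 libraries lay close together above all MA-10 libraries, of which replicate 1 came near to them. The log2 fold change of Lipe was 0.53 (standard error 0.218, 95% interval 0.013 to 1.05, adjusted p = 0.127 from edgeR's test). An antisense gene, 4732471J01Rik, shares 918 exon bases with Lipe and had 7 to 19 counts per library, against 98 to 356 for Lipe.

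The enzyme of the last step was left out of the test by the filter on low counts, and that of the lysosome was not called. Mgll (chr6:88724412-88828360, plus strand) had 6, 2 and 3 counts in MA-10 and 7, 5 and 13 in STARKO1, too few for the test. The summed counts, 11 and 25, corresponded to a ratio of 1.58 of STARKO1 over MA-10 after scaling, with a 95% interval of 0.750 to 3.56 that covers counting error only. Without the filter the log2 fold change of Mgll was 0.75 (adjusted p = 0.40 from edgeR's test). With DESeq2 it was 0.76 (adjusted p = 0.525 from DESeq2's test). A difference in Mgll was not detectable at this depth. Lipa (chr19:34492318-34527474, minus strand) was at 29.4, 32.7 and 29.3 CPM in MA-10 and at 28.3, 23.8 and 26.1 CPM in STARKO1, and the lines were separated by less than 1 CPM. Its log2 fold change was -0.22 (standard error 0.150, 95% interval -0.58 to 0.13, adjusted p = 0.30 from edgeR's test).

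The regulators of Pnpla2, the co-activator and both inhibitors, all had lower fitted means in STARKO1 cells. None of the 3 passed the threshold of edgeR's test, also not at an unadjusted p under 0.05 or with DESeq2. Of all genes, 37.6% had an unadjusted p under 0.05 in edgeR's test, and 22.9% were called with DESeq2. Abhd5 (chr9:122351608-122381524, plus strand) was at 12.5, 16.9 and 16.4 CPM in MA-10 and at 11.1, 11.97 and 11.3 CPM in STARKO1. The groups did not overlap, though MA-10 replicate 1 was within 1 CPM of the highest STARKO1 library. This was a log2 fold change of -0.41 (standard error 0.178, 95% interval -0.84 to 0.0091, adjusted p = 0.139 from edgeR's test). The inhibitor G0s2 (chr1:193272161-193273217, minus strand), which lies within Lamb3 on the other strand without sharing exon bases, was at 73.5, 139.6 and 86.2 CPM in MA-10 and at 77.1, 73.4 and 80.2 CPM in STARKO1. It was the only tested gene of the set whose groups overlapped, since MA-10 replicate 1 was among the STARKO1 values. Its log2 fold change was -0.37 (standard error 0.256, 95% interval -0.98 to 0.23, adjusted p = 0.306 from edgeR's test). Hilpda (chr6:29272488-29275446, plus strand), an inhibitor known to be induced by hypoxia, was at 1.95, 2.34 and 1.94 CPM in MA-10 and at 1.59, 1.71 and 1.69 CPM in STARKO1. These levels rest on 22 to 37 counts per library. The log2 fold change of Hilpda was -0.32 (standard error 0.246, 95% interval -0.90 to 0.27, adjusted p = 0.361 from edgeR's test).

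Of the droplet formation genes, Bscl2 was lower in STARKO1 cells and was the only one of the 9 genes to pass the threshold. Bscl2 (chr19:8837467-8848683, plus strand) was at 10.5, 10.5 and 8.72 CPM in MA-10 and at 3.96, 3.77 and 4.27 CPM in STARKO1. The lowest MA-10 library was thus more than 4 CPM above the highest STARKO1 library, and MA-10 replicate 1 sat with the other MA-10 libraries. The level fell by 1.31 on the log2 scale (standard error 0.182, 95% interval -1.74 to -0.88, adjusted p = 0.0115 from edgeR's test), which is 2.48-fold lower. Fitm2 (chr2:163466379-163472629, minus strand), a protein needed for triglyceride to be packed into droplets, had values in the opposite order, at 17.1, 10.6 and 10.8 CPM in MA-10 and at 19.2, 18.7 and 21.7 CPM in STARKO1. Its log2 fold change was 0.63 (standard error 0.229, 95% interval 0.083 to 1.17, adjusted p = 0.101 from edgeR's test), and MA-10 replicate 1 was again the MA-10 library nearest to STARKO1.

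**Figure D1:**
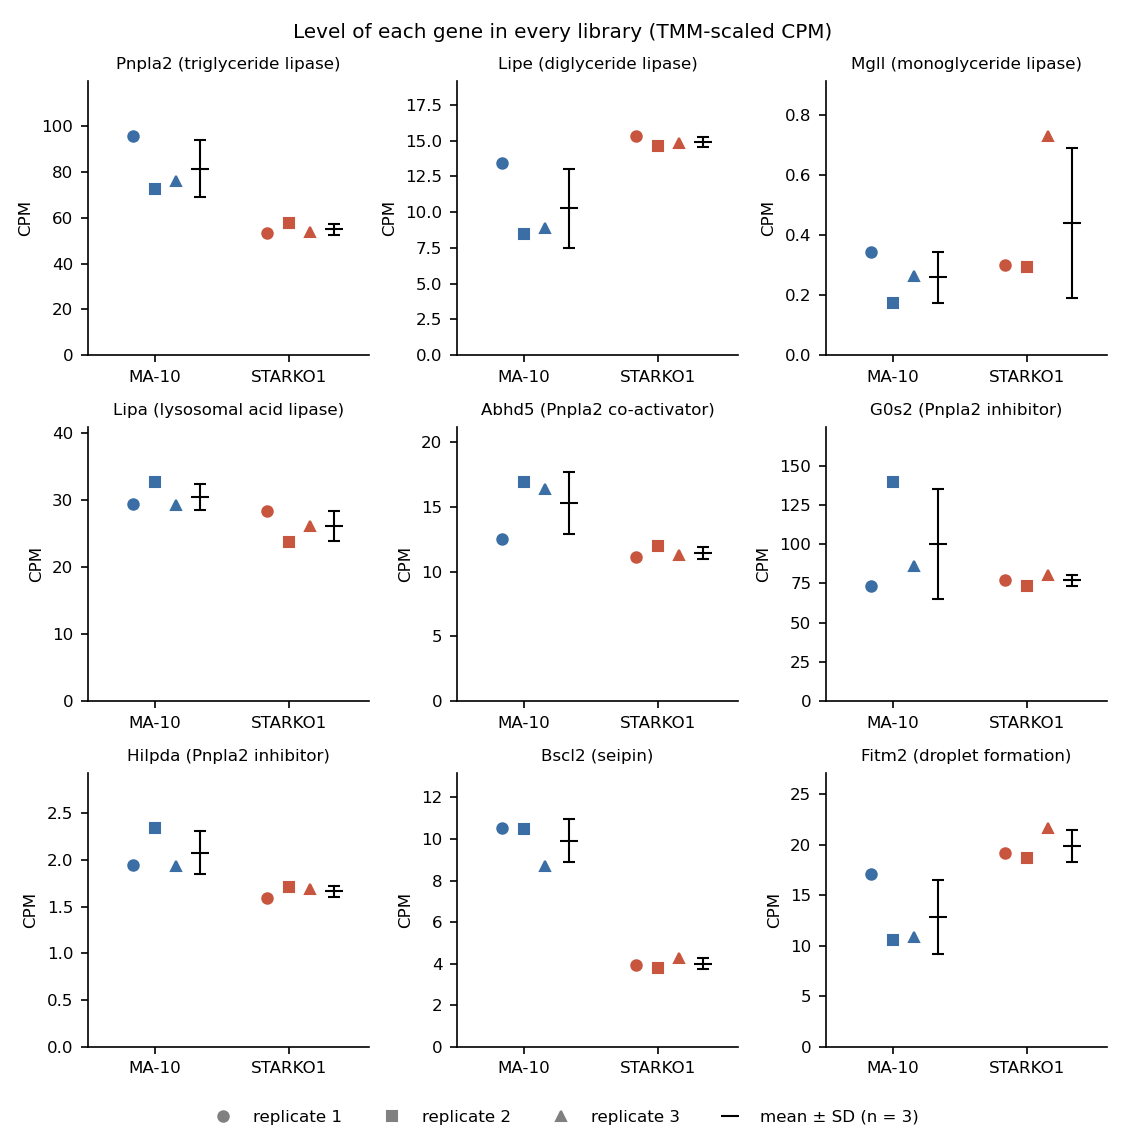
TMM-scaled CPM of the 9 genes in each library of MA-10 (blue) and STARKO1 (red), with marker shapes for the replicates and the mean ± SD (n = 3) in black. Bscl2 shows the widest relative gap, from 8.72 CPM in the lowest MA-10 library to 4.27 CPM in the highest STARKO1 library, and only G0s2 and Mgll overlap between the lines.

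Bscl2 also needs a limit on which reads it counts. It shares 398 exon bases with Gng3 on the other strand and 239 with AC129217.1 on its own strand, neither of which has a row in the table used here, and the counting is not stated to use strand. The RefSeq start of Bscl2, and its promoter stretch printed above, lie within Gng3. The limit on strand also holds for Abhd5, Fitm2 and Mgll. They share 950, 227 and 167 exon bases with A730085K08Rik, 2310001K24Rik and Gm26588, antisense genes without a row. The RefSeq start of Fitm2, and its printed promoter stretch, lie within 2310001K24Rik. The call of Bscl2 was also sensitive to the number of STARKO1 libraries. When libraries were left out in turn, it held in 3 of 6 fits, those without an MA-10 library, and was lost without any 1 of the STARKO1 libraries (adjusted p up to 0.109), while the log2 fold change stayed between -1.39 and -1.17. The paper named Bscl2 among the differentially expressed genes of the same RNA sequencing. It followed up Bscl2 by qRT-PCR, where the decrease in STARKO1 was not significant.

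Over the set, 1 of 8 tested genes was called at an adjusted p under 0.05, against 9.04% of the 11939 genes tested in either direction and 4.74% in the lower direction. At an unadjusted p under 0.05 there were 4 of 8, against 37.6% of all genes. The libraries of the lines did not overlap for 7 of the 8 genes, 5 lower and 2 higher in STARKO1, against 42.5% of all genes tested. The median log2 fold change of the 8 genes was -0.35, beside -0.05 over all genes tested, with 6 negative and 2 positive values. Among the 8 tested genes, the coefficient of variation between libraries ran from 6.34% (Lipa) to 35.1% (G0s2) in MA-10 and from 2.39% (Lipe) to 8.69% (Lipa) in STARKO1, and Lipa was the only one with the larger value in STARKO1.

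The genes differed in how far their values depended on MA-10 replicate 1. Bscl2 and Pnpla2 were lower in STARKO1 whichever MA-10 libraries were used. Without MA-10 replicate 1 the log2 fold changes were -1.17 for Bscl2 and -0.35 for Pnpla2, both past the threshold of edgeR's test. With that replicate as the only MA-10 library they were -1.39 and -0.80. Without MA-10 replicate 2, and without replicate 3, Bscl2 passed but Pnpla2 did not. Pnpla2 then gave -0.65 and -0.61 (adjusted p = 0.0765 and 0.163 from edgeR's test). Lipe and Fitm2 gave 0.87 and 0.98 without MA-10 replicate 1, both past the threshold, but 0.15 and 0.22 with it alone, neither of which passed (adjusted p = 0.358 and 0.183 from edgeR's test). Abhd5 passed without MA-10 replicate 1 (-0.45, adjusted p = 0.0111 from edgeR's test) and gave -0.13 with it alone. G0s2 gave -0.46 without it, just outside the threshold (adjusted p = 0.0501 from edgeR's test), and 0.066 with it alone. The number of called genes of the set was thus 5 of 8 without MA-10 replicate 1, where 65.7% of all genes were called, and 2 of 8 with it alone, where 40.5% were called and the lone library was assumed to vary like the others.

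**Figure D2:**
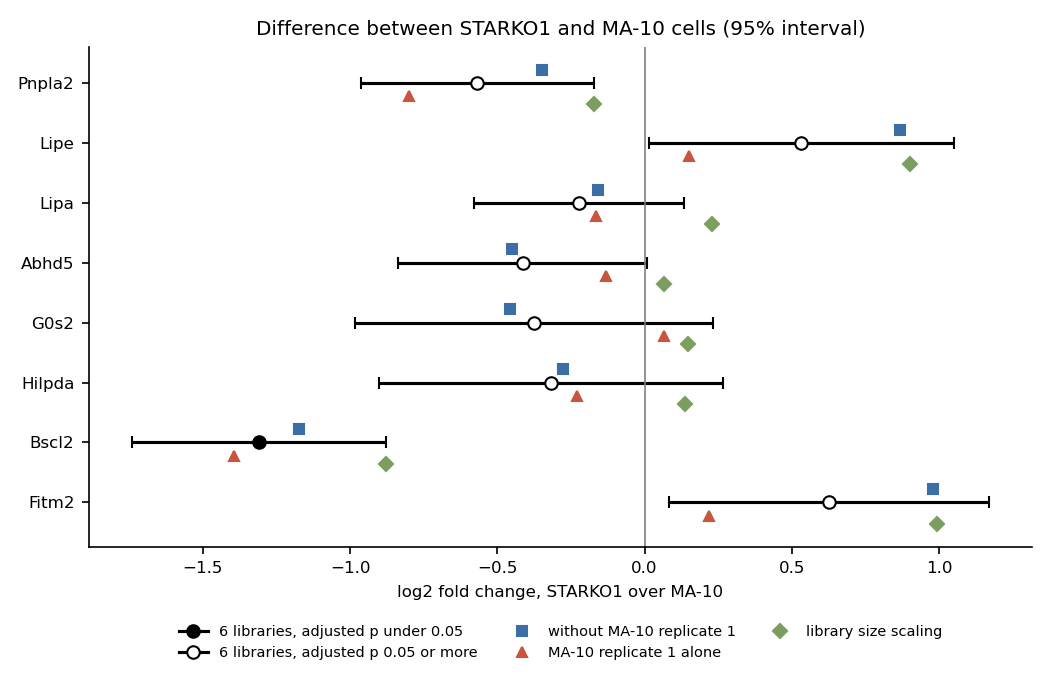
Log2 fold change of STARKO1 over MA-10 for the 8 tested genes, with 95% intervals from the 6-library fit (circles, filled where the adjusted p was under 0.05) and the estimates without MA-10 replicate 1, with it alone, and with scaling by library size. Bscl2 stays between -1.39 and -0.88 throughout, while Lipe and Fitm2 lie near 0.15 and 0.22 when MA-10 replicate 1 is the only MA-10 library.

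Scaling mattered for the genes near 0. With scaling by total counts alone the median log2 fold change of all genes moved up by 0.43, and the values of Lipa, Abhd5, G0s2 and Hilpda turned positive (0.23, 0.065, 0.15 and 0.14). Relative to that shift they were still negative, at -0.20, -0.36, -0.28 and -0.29. Bscl2 and Pnpla2 stayed negative at -0.88 and -0.17, and Lipe and Fitm2 stayed positive at 0.90 and 0.99. None of the 8 genes was called with this scaling, beside 2.76% of all genes.

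Ratios of counts of a pair of genes within a library do not depend on the scaling. These 6 ratios were chosen after the values had been seen and are given as descriptions with no test. The count of Lipe relative to that of Pnpla2 was 0.141, 0.118 and 0.117 in MA-10 and 0.288, 0.254 and 0.276 in STARKO1. The mRNA of the DAG lipase relative to that of the triglyceride lipase was thus 2.18-fold higher in STARKO1, with the groups far apart and MA-10 replicate 1 close to its own line. The count of Fitm2 relative to Bscl2 was 1.62, 1.01 and 1.24 in MA-10 and 4.85, 4.97 and 5.08 in STARKO1, a 3.92-fold difference. For both ratios the separation held in each subset of MA-10 libraries, with log2 differences of 1.22 without MA-10 replicate 1 and 0.95 with it alone for Lipe over Pnpla2, and of 2.15 and 1.62 for Fitm2 over Bscl2. The ratios of the regulators overlapped between the lines. The ratio of G0s2 to Pnpla2 was 0.770, 1.93 and 1.13 in MA-10 and 1.45, 1.27 and 1.49 in STARKO1, and that of Abhd5 to Pnpla2 was 0.131, 0.234 and 0.215 in MA-10 and 0.209, 0.208 and 0.210 in STARKO1. Both had a wide range in MA-10, with replicate 1 lowest, and a narrow one in STARKO1. The counts of Hilpda and Lipa relative to Pnpla2 overlapped as well.

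**Figure D3:**
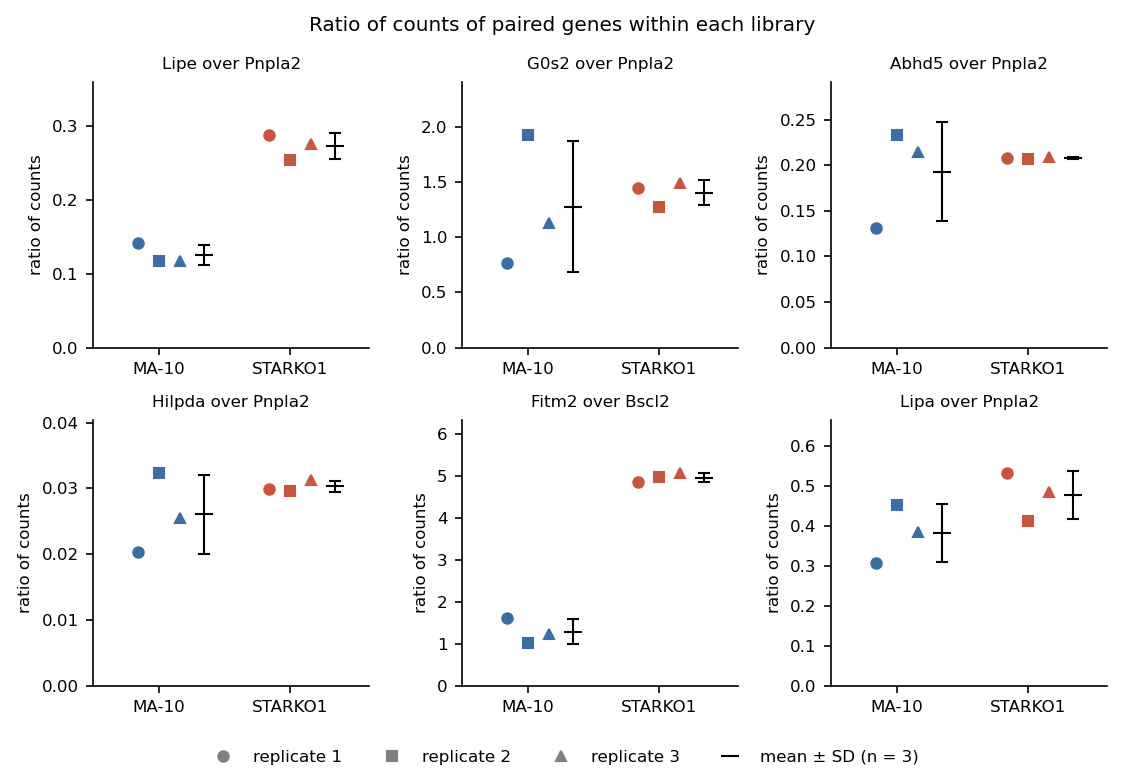
Ratio of counts of paired genes within each library of MA-10 (blue) and STARKO1 (red), with the mean ± SD (n = 3) in black. The lines separate for Lipe over Pnpla2 (at most 0.141 against at least 0.254) and for Fitm2 over Bscl2 (at most 1.62 against at least 4.85), and overlap in the other 4 panels.

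To compare levels between genes, CPM was divided by the length of the exons of each gene in the GENCODE annotation, in kilobases. G0s2 had the highest level per kilobase in both lines, 115 ± 40.2 in MA-10 and 88.3 ± 3.86 in STARKO1 (SD, n = 3), although the lipase it inhibits, Pnpla2, came second at 26.9 ± 4.12 and 18.2 ± 0.797 (SD, n = 3). The co-activator Abhd5 was far below both, at 2.57 ± 0.400 and 1.92 ± 0.0765 CPM per kilobase (SD, n = 3). In MA-10 the order below Pnpla2 was Lipa (4.49), Fitm2 (3.23), Abhd5, Hilpda (1.88), Lipe (1.75), Bscl2 (1.68) and Mgll (0.051), and neighbours from Fitm2 to Bscl2 overlapped in their libraries. In STARKO1 the order below Pnpla2 was Fitm2 (5.01), Lipa (3.85), Lipe (2.54), Abhd5, Hilpda (1.51), Bscl2 (0.678) and Mgll (0.087), and no neighbours overlapped. Fitm2 thus stood above Lipa, and Lipe above Abhd5 and Hilpda, in STARKO1 but not in MA-10 means, whereas Bscl2 and Mgll were lowest in both lines.

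**Figure D4:**
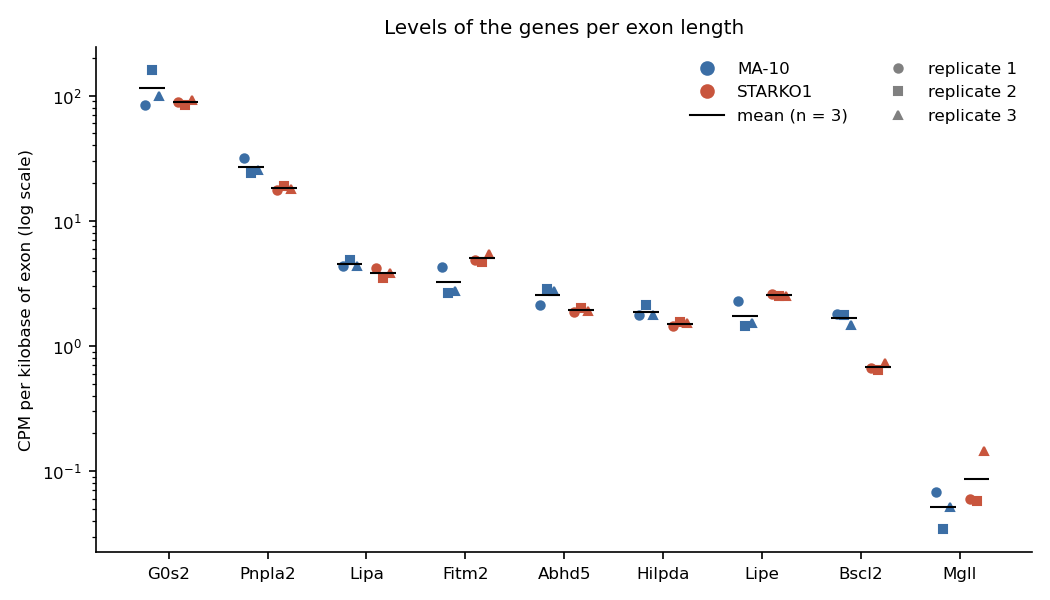
CPM per kilobase of exon on a log scale for the 9 genes, ordered by the MA-10 mean, in each library of MA-10 (blue) and STARKO1 (red), with black lines for the means (n = 3). G0s2 and Pnpla2 lead in both lines, Bscl2 drops from 1.68 to 0.678, and Mgll rests on 2 to 13 counts per library.

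Other genes were taken from 7 lists of 83 genes, of which 67 had a row and 63 were tested. Besides droplet and lipolysis genes, the lists held 16 hypoxia-inducible genes, 14 regulators of lipase gene expression and 7 genes of protein kinase A and Pde3b. Of the 63 tested genes, 10 were called, 3 higher and 7 lower in STARKO1, or 15.9%, beside 9.04% of all genes tested. Of these calls, 2 were of regulators and 2 of hypoxia-inducible genes, so the share is not that of droplet and lipolysis genes alone. Libraries did not overlap between the lines for 49.2% of the 63 genes, beside 42.5% of all. The median log2 fold change of the 63 genes was -0.13, beside -0.05 over all genes. The lists that follow are small, and their counts are read against the same 9.04%. In the list of droplet coat proteins, which shield the stored lipid from lipases, 2 of 5 tested genes rose and none fell. Plin1, the perilipin that holds Abhd5 away from Pnpla2 until the cell is stimulated, rose by 1.18 on the log2 scale (adjusted p = 0.0489 from edgeR's test), from 20.7, 11.5 and 10.7 CPM in MA-10 to 28.3, 34.2 and 35.2 CPM in STARKO1. The paper named Plin1 among the differentially expressed genes of the same RNA sequencing. By qRT-PCR it found a significant difference in Plin1, which it describes as an increase. Plin5, which also binds Pnpla2 and Abhd5, rose by 1.12 (adjusted p = 0.0417 from edgeR's test), from 24.2, 18.6 and 12.9 CPM to 40.7, 36.8 and 43.9 CPM. For both, MA-10 replicate 1 was the highest MA-10 library and still below every STARKO1 library. Without that replicate the log2 fold changes were 1.64 for Plin1 and 1.45 for Plin5, and with it alone 0.65 and 0.74. The other perilipins did not pass, with log2 fold changes of -0.39 for Plin2, 0.42 for Plin3 and 0.89 for Plin4, the last at no more than 1.35 CPM. Without MA-10 replicate 1 these were -0.16, 0.85 and 1.52, and with it alone -0.63, -0.079 and 0.32, so that Plin3 changed sign. Cidea and Cideb, which promote droplet fusion, reached at most 1.14 CPM and were not tested, and Cidec had no row.

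Among the partners of droplet formation and turnover, 2 of 12 fell and none rose. Tmem159 (LDAF1), which assembles with seipin at the sites where droplets form, was at 7.79, 16.7 and 10.04 CPM in MA-10 and at 4.26, 4.30 and 3.82 CPM in STARKO1, and fell by 1.47 on the log2 scale (adjusted p = 0.0359 from edgeR's test). Bscl2 and this partner were thus both lower in all 3 STARKO1 libraries. Rab18, a small GTPase found on droplets, fell by 1.67 (adjusted p = 0.0433 from edgeR's test), from 71.4, 212 and 149 CPM to 49.1, 44.2 and 43.0 CPM, with MA-10 replicate 1 the nearest to STARKO1. Without that replicate the log2 fold changes were -1.60 for Tmem159 and -1.90 for Rab18, and with it alone -0.91 and -0.65. In the lysosomal list, where Lipa acts, 2 of 8 fell. Scarb2 (LIMP-2), a lysosomal membrane protein, was at 57.7, 65.5 and 72.2 CPM in MA-10 and at 27.3, 29.6 and 27.0 CPM in STARKO1, and fell by 1.22 (adjusted p = 0.00861 from edgeR's test). Npc2, which carries the cholesterol that Lipa frees, fell by 0.84 (adjusted p = 0.0410 from edgeR's test). Without MA-10 replicate 1 the values were -1.21 for Scarb2 and -0.80 for Npc2, and with it alone -1.05 and -0.72. None of 6 other tested hydrolases of neutral lipid passed in edgeR's test, and 0 did with DESeq2, beside 22.9% of all genes with DESeq2. At an unadjusted p under 0.05 there was 1, beside 37.6% of all genes. This was Abhd12 (-0.44), chosen after its value was seen.

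Of 13 tested regulators of lipase gene expression, 1 rose and 1 fell. Nr1h3 (LXRα), a receptor for oxysterols, was at 7.33, 7.20 and 6.96 CPM in MA-10 and at 13.2, 12.1 and 13.3 CPM in STARKO1 and rose by 0.85 on the log2 scale (adjusted p = 0.0262 from edgeR's test). Its values lay close together in all 3 MA-10 libraries. Hif1a, the hypoxia-responsive factor that acts on Hilpda, fell by 1.10 (adjusted p = 0.0430 from edgeR's test), from 578, 576 and 910 CPM to 331, 303 and 327 CPM. Without MA-10 replicate 1 the values were 0.95 for Nr1h3 and -1.13 for Hif1a, and with it alone 0.82 and -0.85. The number of calls depended on the libraries used. Of the genes of the 7 lists, 33 were called without MA-10 replicate 1, where 65.7% of all genes were called, 3 without MA-10 replicate 2 (4.19% of all), 1 without MA-10 replicate 3 (1.49% of all), and 0 without any 1 of the STARKO1 libraries (0.730% to 1.11% of all).

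**Figure D5:**
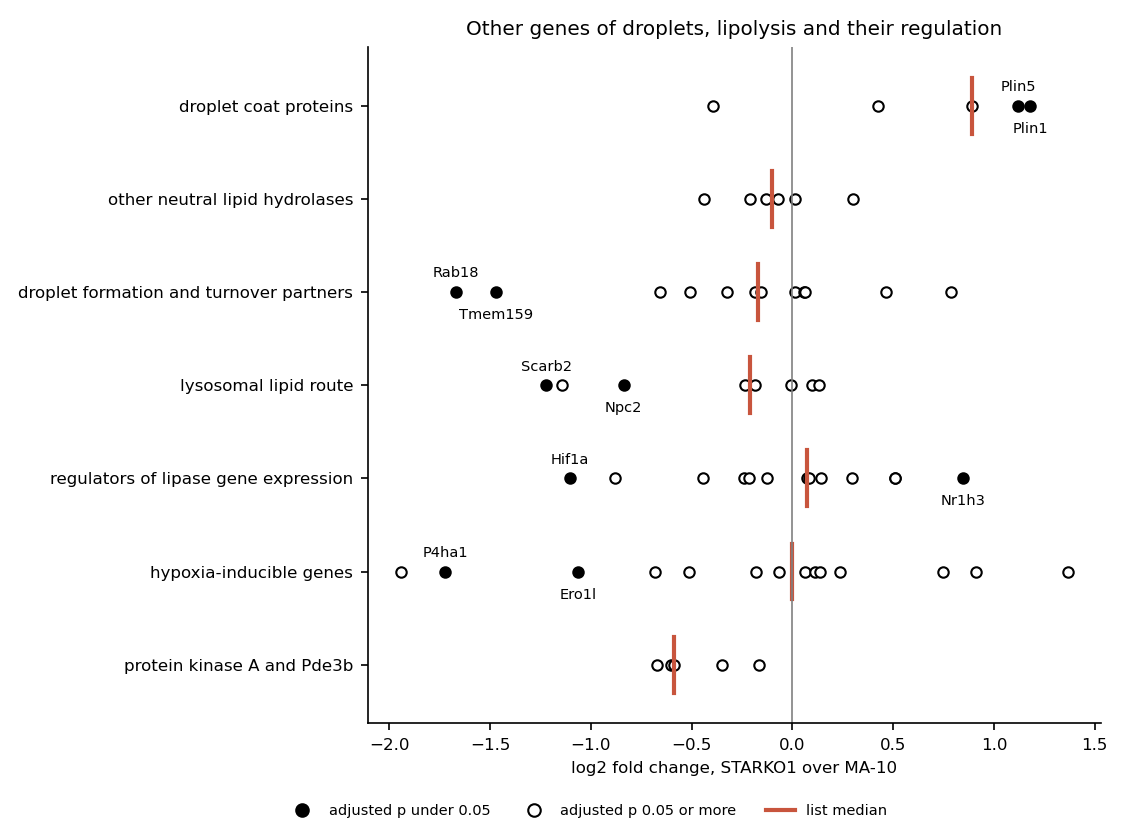
Log2 fold change of STARKO1 over MA-10 for each tested gene of the 7 lists, filled where the adjusted p was under 0.05, with the median of each list in red. Plin1 and Plin5 lie above 1 in the droplet coat list, while Rab18, Tmem159 and Scarb2 lie below -1 in the lists of droplet partners and the lysosomal route.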

How the data were processed

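RNA of 3 MA-10 and 3 STARKO1 libraries was prepared from total RNA with a stranded kit (Takara SMARTer Stranded Total RNA Pico v2). The authors deposited estimated counts per gene, not scaled, with replicates kept apart. The submitters' processing notes name STAR 2.6.1d, Partek and mm10, and the strand setting of the counting is not given in the sources used here. Among 14774 genes, 8006 held at least 1 value off a whole number (tolerance 1e-06). Coordinates and exon lengths came from GENCODE vM21 (GRCm38), where the start matched for all 9 genes.

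Estimated counts were rounded for edgeR 4.0.16 under R 4.3.3 (filterByExpr, TMM, glmQLFit and glmQLFTest over all 6 libraries), with Benjamini-Hochberg adjustment over the 11939 genes tested and a threshold of 0.05. The common biological coefficient of variation was 0.291, and 3 counts corresponded to at most 0.264 CPM. Intervals of fold changes are 95% intervals, and that of Mgll is an exact interval of the ratio of summed counts. Alternatives were DESeq2 1.42.0, other scalings and filters, gene length offsets, thinning, a replicate block, leaving out each library, and MA-10 replicate 1 alone. The code was tested on simulated data. Further tables came from pandas 2.3.3 and scipy 1.17.1 under Python 3.11.15, and plots from matplotlib 3.10.9.

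The genes and lists were chosen with earlier results of these data known, and lists were counted, not tested. Named genes were all 9 members, and from the other lists every gene called and the droplet coat genes. The text says where a further gene was picked once its value was known. Marker lists were Leydig cell (10 of 10 genes with a row, 1 called, Hsd3b1, lower), Sertoli cell (1 of 6), germ cell (1 of 5), macrophage (2 of 5) and adipocyte (0 of 6).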

Additional observations from a re-analysis of the deposited data

How the results depend on the processing

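Of 136 fold changes of the 8 tested genes under the alternatives, 119 kept their direction and their side of the threshold, 6 passed it newly, 6 lost it and 5 turned direction. All 6 losses were of Bscl2, the only gene called in the test of all 6 libraries, so no other gene could lose a call. Its call was lost with scaling by library size, with the replicate block, with the replicate block and gene length offsets, and without any 1 of the STARKO1 libraries. Leaving out 1 library gave 0 to 5 called genes of the set and 0 to 33 of the other lists, beside 0.730% to 65.7% of all genes. The most were called without MA-10 replicate 1, and 0 without any 1 of the STARKO1 libraries. The set had 2 called genes with DESeq2 (Pnpla2, adjusted p = 0.0354, and Bscl2) and 2 with MA-10 replicate 1 alone, and 0 with scaling by library size, with the replicate block and with the replicate block and gene length offsets. The other lists had 17 called genes with DESeq2, 36 with MA-10 replicate 1 alone, 6 with upper quartile scaling, 1 with scaling by library size, 0 with the replicate block and 1 with the replicate block and gene length offsets. Values that turned direction were those of Lipa (0.23), Abhd5 (0.065), G0s2 (0.15) and Hilpda (0.14) with scaling by library size, and that of G0s2 (0.066) with MA-10 replicate 1 alone. Scaling by library size moved the median of all genes by 0.43 and upper quartile scaling by 0.15. The counts of the set and of the other lists are read against the share of all genes called in the same fit. This share was 22.9% with DESeq2, 6.94% with upper quartile scaling and 2.76% with scaling by library size. It was 1.96% with the replicate block and 2.03% with the replicate block and gene length offsets. The share with MA-10 replicate 1 alone is given above. Among all genes, 1079 were called, against 3385 with DESeq2, 330 with scaling by library size and 234 with the replicate block. Without MA-10 replicate 1 there were 7990, and without STARKO1 replicate 1 there were 89. The cause of these changes was not tested. A pairing of the libraries by replicate number was not seen. The deviations of same-numbered libraries from their group means correlated at -0.0165, 0.0455 and 0.0201, and 2 of 6 libraries correlated best with their own number. With 3 libraries per line, and MA-10 replicate 1 apart from the others, this check cannot exclude a pairing. With the replicate block, Bscl2 had an adjusted p of 0.0608 and the 10 called genes of the other lists 0.0521 to 0.106 (edgeR), where 1.96% of all genes were called. At 2 to 13 counts per library, depth limits Mgll.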

Other observations

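Of 14 tested hypoxia-inducible genes, the class to which Hilpda belongs, 2 fell and none rose, beside 9.04% of all genes called, and 6 did not overlap between the lines, beside 42.5% of all. P4ha1, a collagen prolyl hydroxylase subunit, was at 319, 785 and 617 CPM in MA-10 and at 186, 183 and 152 CPM in STARKO1 and fell by 1.72 on the log2 scale (adjusted p = 0.0329 from edgeR's test). Ero1l, an oxidase of the endoplasmic reticulum, was at 283, 235 and 213 CPM in MA-10 and at 131, 122 and 96.0 CPM in STARKO1 and fell by 1.07 (adjusted p = 0.0292 from edgeR's test). MA-10 replicate 1 was the lowest MA-10 library for P4ha1 and the highest for Ero1l. Without it the log2 fold changes were -1.92 and -0.86, and with it alone -0.88 and -1.28. The list median was -0.0024, beside -0.05 over all genes tested.

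Protein kinase A phosphorylates Lipe and Plin1 when lipolysis is stimulated. None of its 5 tested subunit genes passed the threshold of edgeR's test. With DESeq2 0 did, beside 22.9% of all genes. In edgeR's test 2 of the 5 had an unadjusted p under 0.05, beside 37.6% of all genes. Their median log2 fold change was -0.59, but the values depended on MA-10 replicate 1. Without it the log2 fold changes were -0.31 for Prkaca, -0.79 for Prkacb, -0.80 for Prkar1a, -0.23 for Prkar2a and -0.65 for Prkar2b, of which 3 were called, beside 65.7% of all genes. With it alone they were 0.47, -0.16, 0.27, -0.42 and -0.23 in the same order. These 5 genes are named after their values were seen.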
